A study of Homo sapiens with 30 samples.

Results

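Glucose handling was followed through 35 genes: the glucose transporters SLC2A1 and SLC2A3, the enzymes of glycolysis, lactate production and export, the gate through which pyruvate enters mitochondria, and the pentose phosphate pathway. They were taken by name from a fixed list of pathway genes, and all 35 were among the 39359 genes of the count table. All 35 also passed the filter on low counts, which left 21335 genes for testing, and the smallest count of any of them in any library was 29.

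RNA was sequenced from H1299 cells, a p53-null line of human non-small cell lung carcinoma, 6 h and 24 h after transient transfection with a plasmid and sorting on GFP. Control cells received pGFP, a vector that carries GFP and no p53. The others received vectors in which p53 and GFP are each driven by a TRE-tight promoter: wild type p53, RW mutant p53 (codon 248 changed from arginine to tryptophan), or p53 O6-meG, which carries O6-methylguanine, an alkylated base that can be misread during transcription, in the template strand at codon 248. In the p53 TM group, cells received the p53 O6-meG vector together with 10 µM O6-bzG, an inhibitor of AGT, the protein that removes the methyl group. O6-bzG was given to no other group, so the lesion and the inhibitor cannot be told apart where p53 TM is compared with wild type p53. All groups share the line, the transfection and the sort, so these are cells of 1 tumour line holding p53 from a plasmid, not from its own gene. Each vector and time had 3 libraries, stated to be biological triplicates, except p53 O6-meG and p53 TM at 6 h, which had 2 each because the labels of 1 library in each contradict themselves. Those 2 libraries entered no comparison.

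Glycolysis converts glucose to pyruvate in the cytosol, and tumour cells commonly run it fast even in the presence of oxygen. Phosphofructokinase is its main control point and is switched on by fructose-2,6-bisphosphate, which the PFKFB enzymes make and which TIGAR, the product of a known p53 target gene, breaks down, so that glucose carbon can turn toward the pentose phosphate pathway, the source of ribose for nucleotides and of NADPH. Pyruvate then either becomes lactate through lactate dehydrogenase or enters mitochondria through pyruvate dehydrogenase, which the PDK kinases switch off. p53 has been described as a brake on glucose uptake and glycolysis in several cell types.

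Total counts ran from 32302699 to 71950532 per library, and the 35 genes took 1.62% to 1.84% of them. The epithelial markers KRT8 (111 to 181 CPM) and KRT18 (272 to 720 CPM) were present in every library, while EPCAM did not pass 0.381 CPM and the leukocyte marker PTPRC did not pass 0.04997 CPM. HBB, a haemoglobin gene, was read at 162 to 1196 CPM, and at 24 h the summed blood markers were 704 to 1196 CPM with pGFP against 397 to 998 CPM with wild type p53. Summed fibroblast markers were low, 2.11 to 2.20 CPM with pGFP and 0.902 to 1.02 CPM with wild type p53 at 24 h, and summed endothelial markers stayed under 1.00 CPM. The part of these marker transcripts in the results was not tested. In bulk RNA, fewer cells that express a gene and less of its RNA per cell cannot be told apart.

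In pGFP cells at 24 h the enzymes of lower glycolysis dominated. Levels between genes were compared as CPM per kb of each gene's canonical transcript. GAPDH, which oxidises glyceraldehyde-3-phosphate, led with 3871 ± 285 CPM per kb (SD, n = 3), followed by the enolase ENO1 with 1331 ± 136, the lactate dehydrogenase subunit LDHB with 907 ± 47.2 and the pyruvate kinase PKM with 815 ± 54.5. The regulatory enzymes stood far lower, with 6.47 ± 0.290 CPM per kb for PFKFB3 and 4.71 ± 0.296 for TIGAR. The bottom of the order was held by the aldolase ALDOC with 0.960 ± 0.314 and PDK1 with 0.935 ± 0.0761 CPM per kb, a pair that did not differ beyond its spread. The same held for PGLS (37.5 ± 2.43), PGAM1 (36.9 ± 1.58) and PFKM (36.8 ± 1.69). Where isoforms of other lengths are used the order shifts: the exons of PDK3 sum to 17456 bases, against 1741 in the transcript used.

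**Figure D1:**
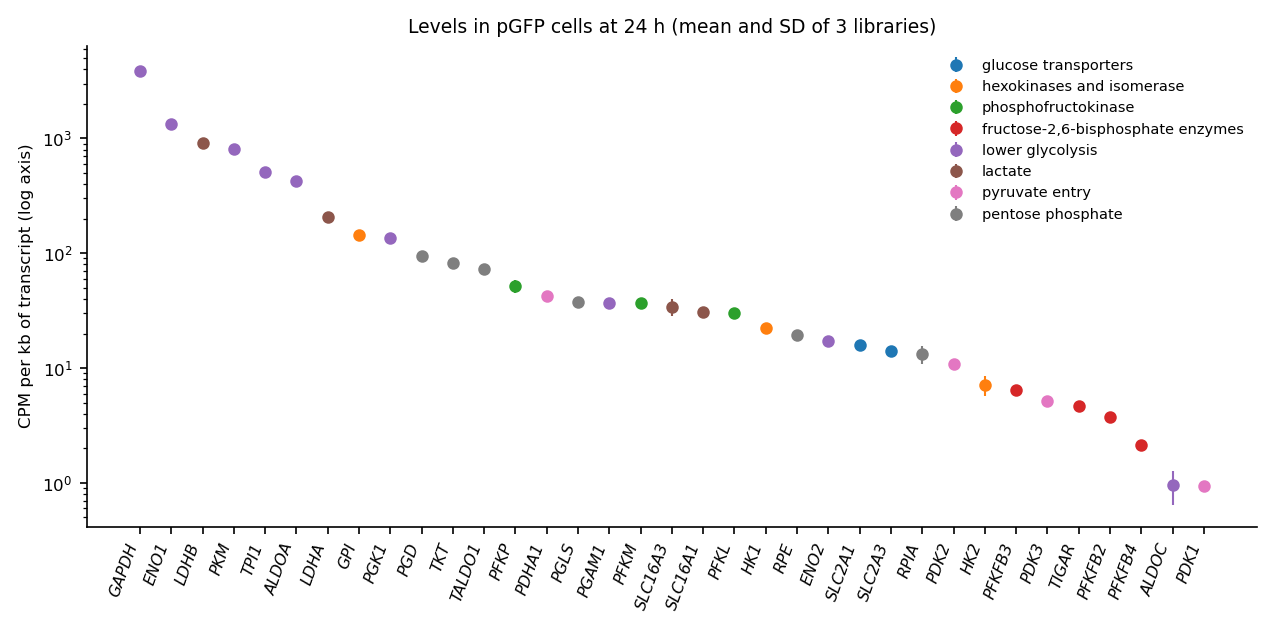
Levels of the 35 genes in pGFP cells at 24 h, in CPM per kb of transcript on a log axis, with the mean and SD of 3 libraries and the colour giving the step of the pathway. GAPDH stands highest at 3871 and PDK1 lowest at 0.935, and TIGAR, PFKFB2, PFKFB3 and PFKFB4 lie near the bottom of the order.

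With wild type p53 at 24 h TIGAR, RPIA, PDK3, PFKFB3, TKT, PKM, LDHA, GAPDH, ALDOA and PGD rose, and SLC2A3, ENO2 and PDK2 fell. Of the 35 genes, 13 changed at an adjusted P below 0.05 (edgeR's quasi-likelihood test, Benjamini-Hochberg over all genes tested), 10 upward and 3 downward. That is 37.1% of them against 35% of all genes tested, of which 20.5% rose and 14.5% fell. The shares are close, so the count by itself sets these genes apart from no others. TIGAR alone also passed a 2-fold change, the size at which the study calls a differentially expressed gene (DEG), which 11.2% of all genes did. The median log2 fold change of the 35 was 0.08, against 0.01 over all genes. With the replicate number as a block, 20 of the 35 changed (16 up, 4 down), against 48.4% of all genes. The 20 included the same 13, and HK1 joined those that fell, while PFKL, PFKP, PFKFB4, ENO1, LDHB and SLC16A3 joined those that rose.

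TIGAR, on chr12:4307763-4360028 (hg38, plus strand), was at 36.1, 41.0 and 39.0 CPM in the 3 pGFP libraries at 24 h and at 194, 191 and 146 CPM in the 3 with wild type p53. The lowest wild type library stood well above the highest pGFP library. The fold change was 4.57 (log2 2.19 ± 0.12 SE, adjusted P = 8.02e-13), the largest of the 35. Among the other genes that act on fructose-2,6-bisphosphate, PFKFB3, which makes it and thus works against TIGAR, also rose: it lies on chr10:6144934-6254644 and read 27.8, 28.7 and 30.4 CPM with pGFP and 44.7, 45.9 and 44.8 CPM with wild type p53 (log2 0.64 ± 0.07, adjusted P = 1.25e-07). Its groups did not overlap either. PFKFB4 gave log2 0.30 ± 0.14 (adjusted P = 0.0956) and passed it with the block.

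In the pentose phosphate pathway RPIA and TKT, both of its non-oxidative branch, and PGD rose. RPIA, the ribose-5-phosphate isomerase (chr2:88691673-88750929), read 19.1, 27.02 and 25.9 CPM with pGFP and 44.5, 43.7 and 40.7 CPM with wild type p53 (log2 0.84 ± 0.10, adjusted P = 2.73e-07). Transketolase, TKT, which passes carbon units between sugars (chr3:53224712-53256052), read 218, 259 and 255 CPM with pGFP and 348, 399 and 350 CPM with wild type p53 (log2 0.58 ± 0.10, adjusted P = 2.77e-05). In both genes every wild type library was above every pGFP library. PGD, the 6-phosphogluconate dehydrogenase of the oxidative branch, rose less (log2 0.19 ± 0.05, adjusted P = 0.00628), and its call was lost without replicate 1 of wild type p53 at 24 h (adjusted P = 0.0840). Of the 6 pentose phosphate genes 3 rose and none fell, where 20.5% of all genes rose and 14.5% fell. PGLS did not pass the threshold, nor did RPE and TALDO1, the other non-oxidative enzymes listed.

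At the entry of pyruvate into mitochondria, 2 kinases of the same enzyme moved in opposite directions. PDK3, on chrX:24465244-24550466, read 9.77, 8.65 and 8.81 CPM with pGFP and 18.9, 16.7 and 12.6 CPM with wild type p53 (log2 0.82 ± 0.15, adjusted P = 6.98e-05). PDK2, on chr17:50094737-50112152, read 35.5, 37.2 and 36.3 CPM with pGFP and 28.1, 33.1 and 28.4 CPM with wild type p53 (log2 -0.28 ± 0.08, adjusted P = 0.00973). The groups of libraries did not overlap in either gene. PDK2 shares 2113 exon bases with SAMD14 on the opposite strand, and whether reads were counted by strand is not given in the sources used here. PDK1 and PDHA1, the catalytic subunit that the kinases act on, did not pass the threshold.

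Of the glucose transporters, SLC2A3 (GLUT3) fell and SLC2A1 (GLUT1) gave a log2 fold change of 0.01 ± 0.10. SLC2A3, on chr12:7919230-8019007, read 58.8, 53.6 and 50.7 CPM with pGFP and 37.1, 43.4 and 39.5 CPM with wild type p53, groups that did not overlap, a level 1.36-fold lower (log2 -0.44 ± 0.07, adjusted P = 3.29e-05). SLC2A1 read 47.5, 57.1 and 55.3 CPM with pGFP and 46.7, 60.9 and 53.7 CPM with wild type p53, so its groups overlapped. HK2, the inducible hexokinase that traps glucose in the cell, read 31.1, 46.1 and 43.7 CPM with pGFP and 26.1, 37.8 and 43.9 CPM with wild type p53. These groups overlapped as well, and the log2 fold change of -0.17 ± 0.16 did not pass the threshold (adjusted P = 0.456).

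Of the 9 genes of lower glycolysis, GAPDH, PKM and ALDOA rose slightly and ENO2, the neuronal enolase, fell. Of all genes tested, 20.5% rose and 14.5% fell. The other 5 genes of lower glycolysis, among them the abundant ENO1 and TPI1, did not pass the threshold. ENO2, on chr12:6913745-6923698, read 41.5, 39.0 and 38.0 CPM with pGFP and 29.5, 29.8 and 28.8 CPM with wild type p53, a separation with no overlap (log2 -0.43 ± 0.10, adjusted P = 0.00205). GAPDH, which has 56 annotated pseudogenes that drew 0.579% of the counts of the family, read 4552, 5157 and 5213 CPM with pGFP and 5524, 5815 and 5746 CPM with wild type p53 (log2 0.20 ± 0.07, adjusted P = 0.0296). PKM read 1739, 1917 and 1981 CPM with pGFP and 2174, 2305 and 2230 CPM with wild type p53 (log2 0.25 ± 0.07, adjusted P = 0.00636). In both, as in the next pair, every wild type library exceeded every pGFP library. ALDOA, the main aldolase here, read 640, 714 and 721 CPM with pGFP and 749, 810 and 802 CPM with wild type p53 (log2 0.19 ± 0.07, adjusted P = 0.0318). LDHA, the lactate dehydrogenase subunit that favours lactate, read 406, 506 and 481 CPM with pGFP and 545, 555 and 554 CPM with wild type p53 (log2 0.25 ± 0.09, adjusted P = 0.0271). With the replicate block the adjusted P was 0.000238 for ALDOA, 0.000161 for GAPDH, 0.000282 for LDHA and 1.55e-05 for PKM. Libraries were left out in fits with no block. There, without replicate 1 of pGFP at 24 h, 9 of the 35 genes changed, and the share of all genes is not given here. Adjusted P was then 0.176 for ALDOA and for GAPDH, 0.189 for LDHA and 0.0502 for PKM. ALDOA, GAPDH and LDHA were also lost without any 1 of the 3 wild type libraries at 24 h, without wild type replicate 1 at 6 h or without any 1 of the 3 RW libraries at 6 h, with adjusted P between 0.0583 and 0.117. Across the 35 genes, 14 had groups of libraries that did not overlap, 11 above and 3 below, or 40% against 43.6% of all genes.

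**Figure D2:**
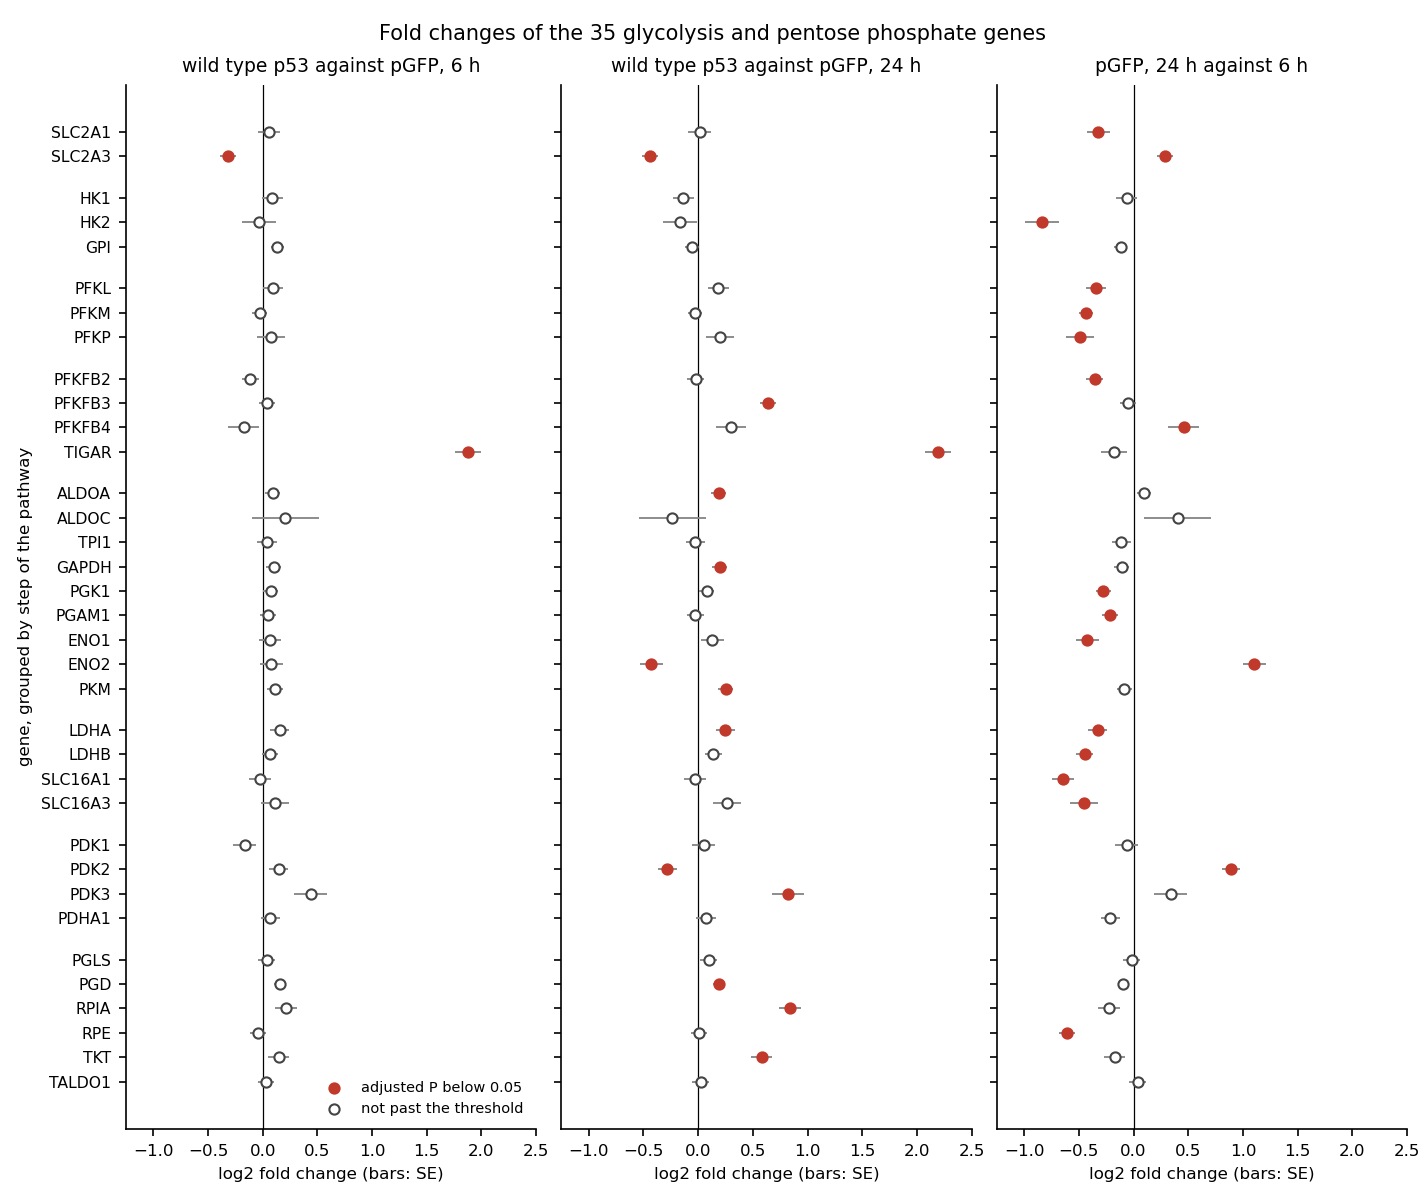
Log2 fold changes (points) with their SE (bars) of the 35 genes, ordered by step of the pathway, for wild type p53 against pGFP at 6 h and at 24 h and for pGFP at 24 h against 6 h, with filled points for adjusted P below 0.05. TIGAR stands apart at 1.88 and 2.19 in the first and second panels, and in the third most genes lie left of 0.

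**Figure D3:**
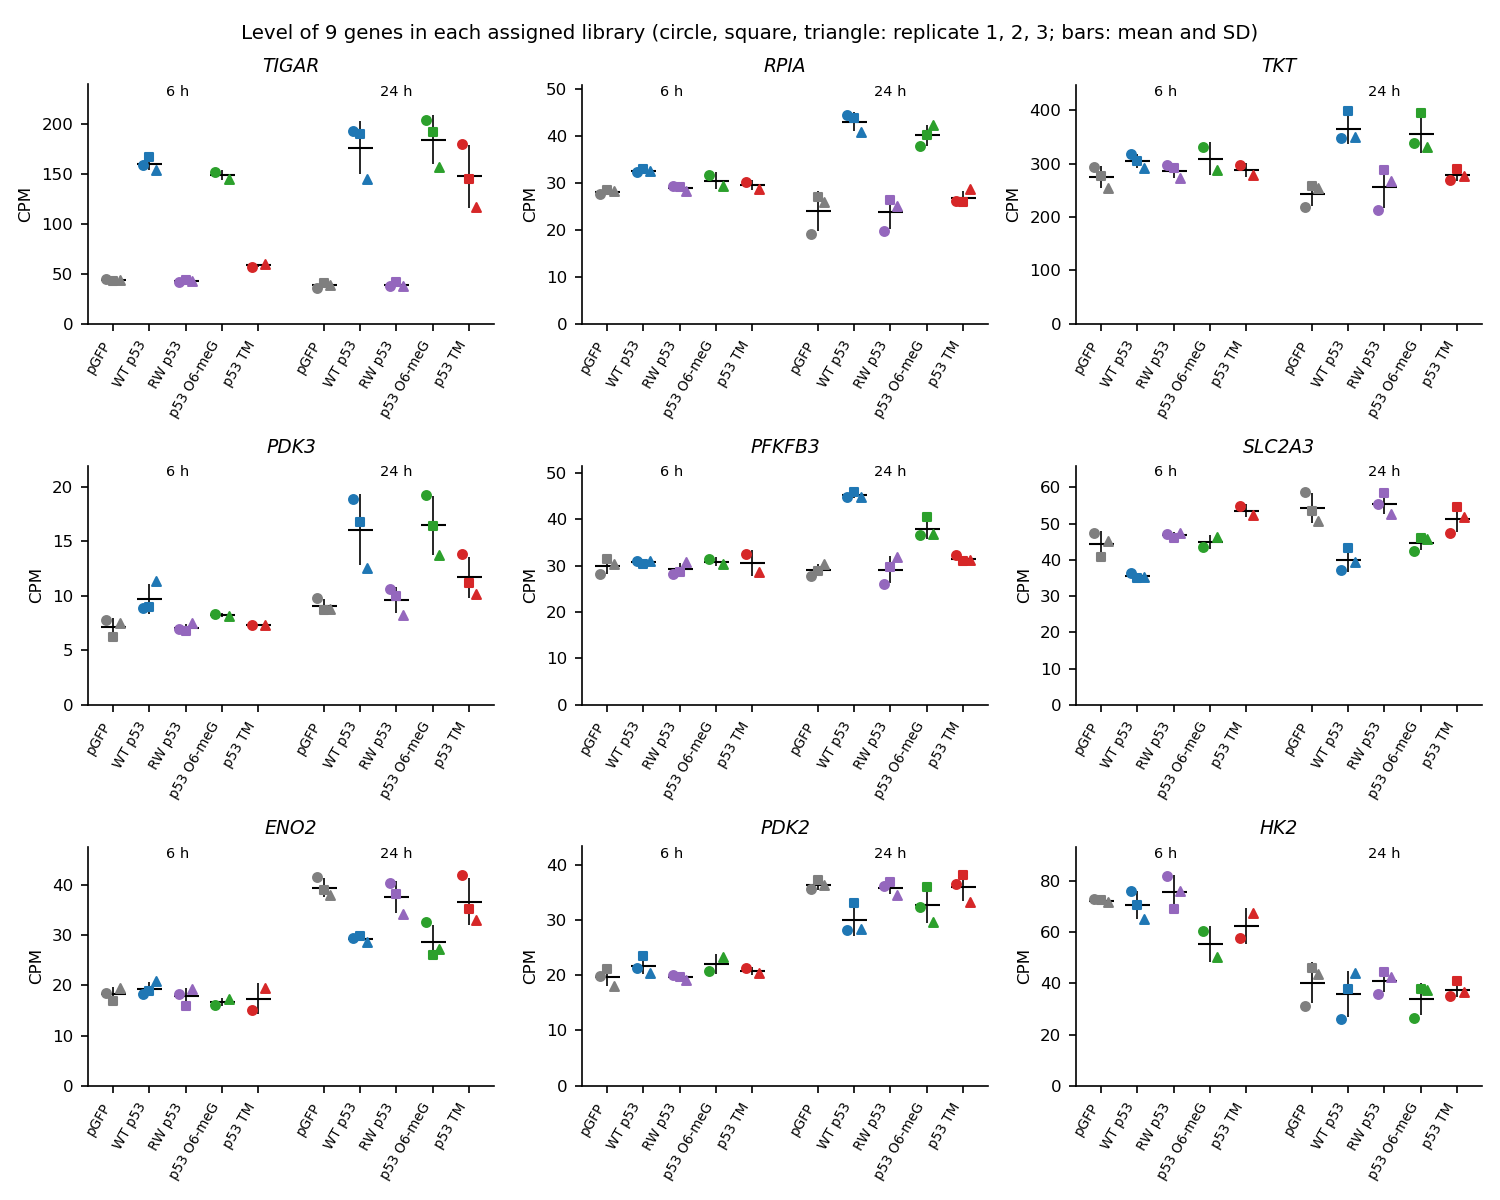
CPM of 9 genes in each assigned library, by vector and time, with the shape giving the replicate number and the bars the mean and SD. TIGAR is high with wild type p53 and p53 O6-meG at both times and with p53 TM at 24 h, whereas HK2 is lower at 24 h than at 6 h with pGFP.

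Promoters were chosen from the genes that rose, after their values were seen, and PFKFB3, which rose more than TKT, was left out. Those of TIGAR, RPIA, PDK3 and TKT are shown. Each is the 250 bases before the gene's start in RefSeq, 5' to 3' on the gene's own strand, in build GRCh38.p14: TIGAR chr12:4320963-4321212 (plus), RPIA chr2:88691423-88691672 (plus), PDK3 chrX:24465036-24465285 (plus) and TKT chr3:53256023-53256272 (minus). Capitals mark GGGCGG, the GC box, and ACGTG, the core of the hypoxia response element, on either strand.
TIGAR: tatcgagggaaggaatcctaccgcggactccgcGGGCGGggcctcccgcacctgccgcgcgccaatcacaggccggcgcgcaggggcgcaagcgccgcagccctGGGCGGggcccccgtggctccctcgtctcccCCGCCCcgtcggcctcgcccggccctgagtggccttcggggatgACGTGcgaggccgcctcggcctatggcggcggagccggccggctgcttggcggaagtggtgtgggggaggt
RPIA: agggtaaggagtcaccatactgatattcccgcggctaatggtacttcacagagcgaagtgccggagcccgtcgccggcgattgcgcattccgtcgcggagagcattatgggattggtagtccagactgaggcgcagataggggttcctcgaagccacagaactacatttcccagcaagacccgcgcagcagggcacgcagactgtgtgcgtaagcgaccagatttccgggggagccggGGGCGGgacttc
PDK3: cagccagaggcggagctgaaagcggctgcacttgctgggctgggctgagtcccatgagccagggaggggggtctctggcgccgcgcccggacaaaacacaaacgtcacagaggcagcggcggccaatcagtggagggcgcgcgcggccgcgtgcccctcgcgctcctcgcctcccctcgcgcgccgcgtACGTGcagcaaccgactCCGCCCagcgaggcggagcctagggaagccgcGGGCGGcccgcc
TKT: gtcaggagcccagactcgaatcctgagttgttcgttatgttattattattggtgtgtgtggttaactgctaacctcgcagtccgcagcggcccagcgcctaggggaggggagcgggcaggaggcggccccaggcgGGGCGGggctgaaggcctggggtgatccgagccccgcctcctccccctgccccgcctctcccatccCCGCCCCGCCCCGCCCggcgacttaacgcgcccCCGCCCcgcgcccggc
TIGAR held 3 GC boxes and 1 ACGTG, RPIA 1 and 0, PDK3 2 and 1, and TKT 5 overlapping or separate GC boxes and no ACGTG. Promoter windows of 300 bases, from 250 before to 50 after the start, were held for 32 of the 35 genes, in 60 windows. No window was held for SLC2A3, PFKFB2 or SLC16A1. GGGCGG was in 71.7% of the 60 windows and in 44.95% of all 35116 windows, and ACGTG in 36.7% and 21.4%. CACGTG, the E-box, which contains ACGTG, was in 11.7% and 7.26%. The half-site consensus of p53 was in 5% of the genes' windows (HK1 and PGAM1) and 6.63% of all windows, and in none of those of TIGAR, RPIA, PDK3 or TKT. These are matches of letters in a window, not sites of binding.

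At 6 h, 2 of the 35 genes differed between wild type p53 and pGFP, or 5.71% against 10.3% of all genes. TIGAR was already up, from 44.8, 42.8 and 43.7 CPM with pGFP to 160, 168 and 155 CPM with wild type p53 (log2 1.88 ± 0.12, adjusted P = 1.92e-11). SLC2A3 was already down, from 47.5, 40.7 and 45.3 CPM to 36.4, 35.1 and 35.4 CPM (log2 -0.32 ± 0.07, adjusted P = 0.00405). Neither gene's groups overlapped. RPIA read 27.7, 28.4 and 28.2 CPM with pGFP and 32.2, 33.0 and 32.4 CPM with wild type p53, groups that did not overlap although the fit did not call the gene. Groups did not overlap in 28.6% of the 35 genes (8 above, 2 below), against 31.5% of all genes. The median log2 fold change of the 35 was 0.07, against 0.02 over all genes.

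Whether the response to wild type p53 differed between the times was tested as an interaction. It differed for 4 of the 35 genes, 11.4% against 6.51% of all genes. PFKFB3 (difference of log2 fold changes 0.60 ± 0.10, adjusted P = 0.000983) and RPIA (0.63 ± 0.14, adjusted P = 0.00795) responded more at 24 h. ENO2 (-0.51 ± 0.15, adjusted P = 0.0404) and PDK2 (-0.43 ± 0.12, adjusted P = 0.0294) were lower with wild type p53 at 24 h and gave values just above 0 at 6 h that did not pass the threshold (log2 0.08 ± 0.11 and 0.15 ± 0.08). TIGAR did not pass this test. With the block 9 genes differed, against 18.3% of all genes, and 2 differed without any 1 of pGFP replicate 1 or 2 at 24 h, wild type replicate 1 at 24 h, pGFP replicate 1 at 6 h or wild type replicate 2 at 6 h. The share of all genes without these libraries is not given here. ENO2 and PDK2 were the less stable pair: leaving out 1 of several pGFP or wild type libraries took their adjusted P as high as 0.114 and 0.0968.

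With RW mutant p53 none of the 35 genes passed the threshold at either time, where 0.00469% of all genes were called. Both edgeR and the DESeq2 Wald test called 0, and 0 had an unadjusted P below 0.05 in edgeR. TIGAR stood at 37.9, 42.1 and 38.3 CPM with RW mutant p53 at 24 h, within the range of the pGFP libraries but for 1 library above it.

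The p53 O6-meG vector without O6-bzG, in which AGT can repair the lesion, gave at 24 h 9 changed genes of the 35 (7 up, 2 down), or 25.7% against 29.5% of all genes, of which 18.1% rose and 11.3% fell. All the vectors were set against the same pGFP libraries, so their results are given side by side. TIGAR read 205, 193 and 157 CPM (log2 2.26 ± 0.12, adjusted P = 5.3e-13) and RPIA 37.8, 40.2 and 42.3 CPM (log2 0.74). PDK3 read 19.2, 16.4 and 13.8 CPM (log2 0.86), TKT 339, 396 and 332 CPM (log2 0.54) and PFKFB3 36.6, 40.5 and 36.7 CPM (log2 0.39 ± 0.07, adjusted P = 0.000176). In each of these genes all 3 libraries lay above those of pGFP. Groups did not overlap in 37.1% of the 35 genes (11 above, 2 below), against 38.0% of all genes. PKM (log2 0.22) and GAPDH (log2 0.20) also rose. ENO2, at 32.6, 26.1 and 27.3 CPM, and SLC2A3, at 42.3, 46.1 and 45.8 CPM, fell (log2 -0.46 and -0.28), each below all 3 pGFP libraries. GAPDH and PKM lost their call without pGFP replicate 1 at 24 h (adjusted P = 0.172 and 0.107) and without 7 and 6 other single libraries. With the block 18 of the 35 changed (14 up, 4 down), against 42.8% of all genes. At 6 h the 2 assigned p53 O6-meG libraries read 153 and 146 CPM of TIGAR, the 1 gene that changed (log2 1.77 ± 0.13, adjusted P = 4.03e-10), or 2.86% against 4.85% of all genes.

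With p53 TM, TIGAR was high at 24 h, and in the fit with no block no other gene of the 35 passed the test against pGFP. TIGAR was the 1 gene of 35 that changed against pGFP, 2.86% against 10.7% of all genes, with 181, 145 and 118 CPM in the 3 libraries (log2 1.93 ± 0.12, adjusted P = 1.63e-11). Each was above every pGFP library. PDK3, at 13.8, 11.1 and 10.1 CPM (log2 0.36, adjusted P = 0.133), TKT, at 269, 290 and 276 CPM (log2 0.19, adjusted P = 0.260), and PFKFB3, at 32.2, 31.0 and 31.1 CPM (log2 0.12), stood above all pGFP libraries without passing the test. RPIA, at 26.04, 25.9 and 28.6 CPM (log2 0.16), overlapped with pGFP. Groups did not overlap in 17.1% of the 35 genes (6 above, 0 below), against 24.4% of all genes. With the block 6 genes rose, TIGAR, PDK3, TKT, PFKL, PGLS and PGD, against 21.7% of all genes. At 6 h none of the 35 passed in edgeR (0.202% of all genes did), 3 had an unadjusted P below 0.05, and the DESeq2 Wald test called 0. TIGAR then read 57.4 and 59.8 CPM in the 2 assigned libraries, both above pGFP (log2 0.42 ± 0.13, adjusted P = 0.405, and 0.0182 with the block, although at 6 h the replicate numbers were not shown to pair the libraries).

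Set directly against wild type p53 at 24 h, p53 TM differed in 10 of the 35 genes, 3 higher and 7 lower, or 28.6% against 21.2% of all genes (9.29% higher, 11.9% lower). The lower genes were RPIA (log2 -0.68 ± 0.10, adjusted P = 3.65e-05), PFKFB3 (log2 -0.52 ± 0.07, adjusted P = 1.97e-05), PDK3 (log2 -0.46 ± 0.14, adjusted P = 0.0244), TKT (log2 -0.39 ± 0.10, adjusted P = 0.00458), PFKFB4 (log2 -0.39), the lactate exporter SLC16A3 (log2 -0.37) and LDHA (log2 -0.24). The higher genes were SLC2A3 (log2 0.36 ± 0.07, adjusted P = 0.0011), ENO2 (log2 0.32 ± 0.10, adjusted P = 0.0286) and PDK2 (log2 0.26 ± 0.08, adjusted P = 0.0251). SLC2A3 read 47.4, 54.7 and 51.7 CPM with p53 TM, all above the 37.1 to 43.4 CPM of wild type p53. ENO2 read 42.0, 35.2 and 33.1 CPM and PDK2 36.4, 38.0 and 33.3 CPM with p53 TM. All 3 groups lay above those of wild type p53. Groups did not overlap in 31.4% of the 35 genes (3 above, 8 below), against 29.7% of all genes. TIGAR differed by log2 -0.26 ± 0.11, which missed the threshold (adjusted P = 0.118) and passed it with the block (log2 -0.26, adjusted P = 0.0128), and its groups overlapped. With the block 16 of the 35 differed (4 higher, 12 lower), against 37% of all genes.

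RPIA, PFKFB3, TKT and SLC2A3 kept their call against wild type p53 at 24 h in every alternative run. Without wild type replicate 1, p53 TM replicate 1, p53 TM replicate 2 or p53 TM replicate 3, 6 of the 35 differed, and without wild type replicate 2, 5 did. The share of all genes in these fits is not given here. A move of the 35 genes and a move of all genes then cannot be told apart. PFKFB4 and LDHA stood nearest the threshold: each lost its call without any 1 of 21 libraries, with adjusted P up to 0.260 and 0.165. The calls of SLC16A3, ENO2, PDK2 and PDK3 were each lost without 1 of 3 to 8 single libraries, with adjusted P up to 0.175, 0.165, 0.121 and 0.175. At 6 h TIGAR was lower with p53 TM than with wild type p53 (log2 -1.45 ± 0.14, adjusted P = 4.22e-08) and SLC2A3 higher, at 54.8 and 52.4 CPM against 35.1 to 36.4 CPM (log2 0.59 ± 0.08, adjusted P = 1.38e-05). These were the 2 of 35 that differed, 5.71% against 10.9% of all genes. With the 2 contradictory libraries placed by their genotype field, 1 differed, and TIGAR gave log2 -0.79 (adjusted P = 0.152). The share of all genes in that fit is not given here. This placement put a library with 161 CPM of TIGAR and 249.7 CPM of CDKN1A, another p53 target, into p53 TM. The assigned p53 TM libraries at 6 h read 57.9 and 65.9 CPM of CDKN1A. Levels in both contradictory libraries are given with the results flagged for a closer look.

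**Figure D4:**
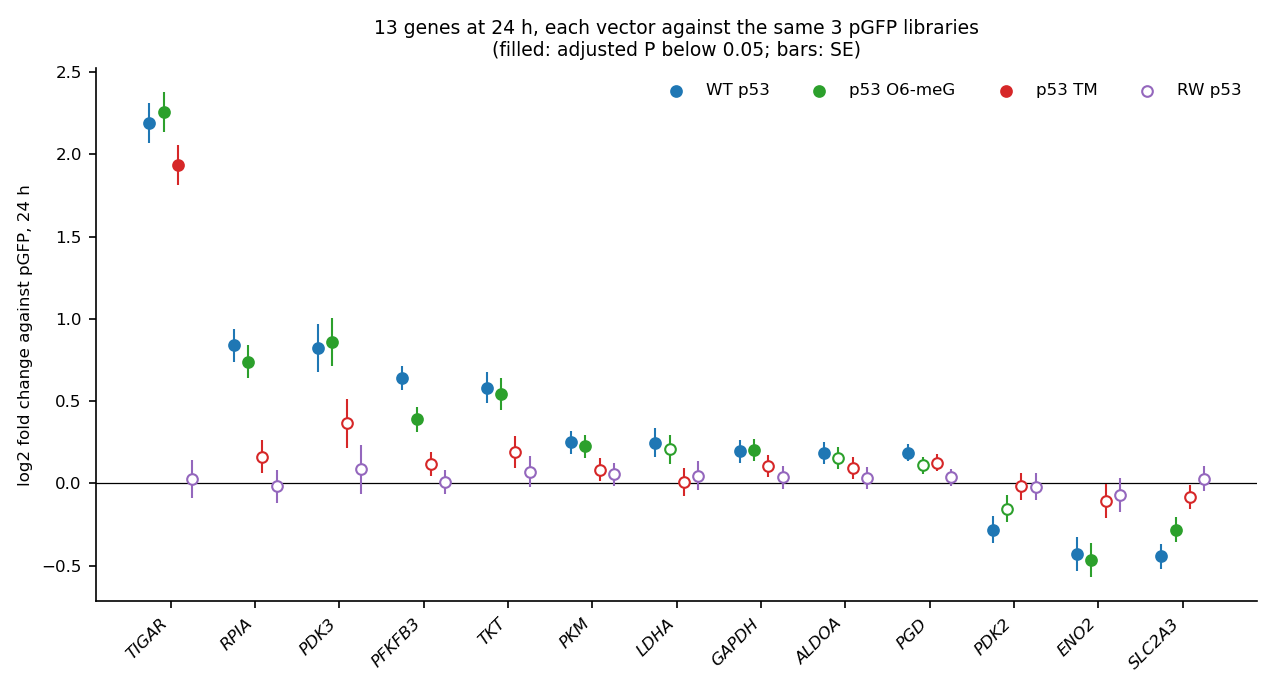
Log2 fold change against the same 3 pGFP libraries at 24 h, with SE bars, for the 13 genes that changed with wild type p53, shown for wild type p53, p53 O6-meG, p53 TM and RW p53, with filled points for adjusted P below 0.05. TIGAR is high at 2.19, 2.26 and 1.93 with the first 3, and RPIA is at 0.84 and 0.74 with the first and second but at 0.16 with p53 TM.

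Between 6 h and 24 h the pGFP cells themselves changed in 18 of the 35 genes, 51.4% against 41.2% of all genes, with 14 lower and 4 higher at 24 h, where 22.3% and 19% of all genes were. The median log2 fold change was -0.17, against 0.00 over all genes, and 27 of the 35 values were below 0. HK2 fell from 72.8, 72.3 and 71.6 CPM to 31.1, 46.1 and 43.7 CPM (log2 -0.84 ± 0.16, adjusted P = 0.000121). The lactate transporter SLC16A1 (log2 -0.65), the pentose epimerase RPE (log2 -0.61) and the phosphofructokinases PFKP (log2 -0.49) and PFKM (log2 -0.44) were lower as well. ENO2 rose 2.15-fold, from 18.5, 16.98 and 19.5 CPM to 41.5, 39.0 and 38.0 CPM (log2 1.11 ± 0.11, adjusted P = 2.12e-08), the 1 gene of the 35 past 2-fold, against 9.96% of all genes. PDK2 rose 1.85-fold, from 19.8, 21.1 and 17.98 CPM to 35.5, 37.2 and 36.3 CPM (log2 0.89 ± 0.08, adjusted P = 1.76e-08). In HK2, ENO2 and PDK2 the libraries of the times did not overlap. PFKFB4 (log2 0.46) and SLC2A3 (log2 0.29) also rose. Across the 35 genes, 25 had times that did not overlap, 5 above and 20 below at 24 h, or 71.4% against 55.6% of all genes. SLC2A1, at 70.2, 67.7 and 62.1 CPM at 6 h, was lower at 24 h (log2 -0.32), a call lost without pGFP replicate 1 at 24 h or at 6 h (adjusted P = 0.0996 and 0.0631). SLC16A3 (log2 -0.45) lost its call without pGFP replicate 1 at 24 h (adjusted P = 0.0602), and PGAM1 (log2 -0.22) lost it without any 1 of 7 libraries (adjusted P up to 0.130). Whether the 6 h and 24 h libraries were prepared together is not given in the sources used here, so time and preparation cannot be told apart. Marker genes moved with time as well. In pGFP cells the summed blood markers lay between 544 and 598 CPM at 6 h and between 704 and 1196 CPM at 24 h, the fibroblast markers between 0.750 and 0.802 CPM and then between 2.11 and 2.20 CPM, and the endothelial markers between 0.0874 and 0.139 CPM and then between 0.272 and 0.690 CPM. KRT8, KRT18, EPCAM and VIM, listed as markers of epithelial carcinoma, summed to between 3676 and 3830 CPM and then between 2356 and 3228 CPM. Most of that sum was VIM, with means of 2982 and then 2432 CPM, against 612 and then 347 CPM for KRT18. None of the summed ranges overlapped between the times, and the part of these markers in the change over time was not tested.

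The libraries at 24 h also differed by replicate number in the same way across vectors. In 19 of the 35 genes replicate 1 was the lowest library in all 5 vector groups, which held for 16.1% of all genes, and it was the highest for ALDOC and PDK3 (14.9% of all genes). The 19 were SLC2A1, HK2, GPI, PFKM, PFKP, ALDOA, TPI1, GAPDH, PGK1, ENO1, PKM, LDHA, LDHB, SLC16A1, SLC16A3, PDK1, PDHA1, PGLS and RPE. TIGAR, RPIA and TKT were not among them. What set replicate 1 apart was not tested.

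Within enzyme families the make-up shifted for the kinases of pyruvate dehydrogenase. Shares were taken from CPM per kb, have no test and inherit the transcript lengths used. PDK3 made up 30.8% ± 1.98 (SD, n = 3) of PDK1, PDK2 and PDK3 together with pGFP at 24 h, 48.1% ± 5.52 with wild type p53, 46.9% ± 3.93 with p53 O6-meG and 36.7% ± 3.44 with p53 TM, while PDK2 went from 63.7% ± 1.52 with pGFP to 46.8% ± 4.64 with wild type p53. PFKFB3 was 52.3% ± 1.40 of the 3 PFKFB enzymes with pGFP and 61.5% ± 1.72 with wild type p53. SLC2A3 was 47.5% ± 4.17 of both glucose transporters with pGFP and 39.8% ± 1.35 with wild type p53. In each of these families the lowest and highest libraries of wild type p53 and pGFP did not overlap. HK2 was 35.7% ± 0.658 of both hexokinases with pGFP at 6 h and 24.3% ± 3.55 at 24 h, and 23.9% ± 3.93 with wild type p53 at 24 h. Other families were held by 1 member: ALDOA was 99.8% ± 0.0914 of the aldolases and ENO1 98.7% ± 0.199 of the enolases with pGFP at 24 h.

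A second list held 44 other genes of glucose metabolism, of which 43 were in the count table and 36 were tested. With wild type p53 at 24 h 6 rose, 10 fell and 20 did not pass, where 20.5% of all genes rose and 14.5% fell, and their median log2 fold change was -0.17, against 0.01 over all genes. PDK4, the kinase of the same family induced in fasting, rose from 3.64, 3.13 and 2.89 CPM to 10.8, 7.42 and 4.18 CPM (log2 1.22 ± 0.27), with no overlap. SLC2A9, a urate transporter, rose by log2 2.09 ± 0.40 and the glucose-6-phosphatase G6PC3 by 0.34 ± 0.07. SLC2A2 had 43, 46 and 16 counts with wild type p53 and at most 1 with pGFP, at least 11.3-fold higher when pGFP is set to 3 counts per library. PKLR rose on few reads, 12 to 21 counts against 1 to 7 (log2 1.78 ± 0.64). Of those that fell, PGM2L1, which makes glucose-1,6-bisphosphate, went from 32.3, 29.6 and 26.1 CPM to 14.5, 15.5 and 15.3 CPM (log2 -0.96), and read 28.2, 25.99 and 24.9 CPM with p53 TM. The others that fell were SLC2A4, LDHC, H6PD, MPC1, PDHX, SLC2A13, BPGM, DLAT and ADPGK. At 6 h 3 rose, PDK4 (log2 2.31), SLC2A9 (log2 1.88) and G6PC3 (log2 0.28), and none fell, where 10.3% of all genes changed. With p53 TM against pGFP at 24 h, 0 of the 36 passed in edgeR (10.7% of all genes did), 5 had an unadjusted P below 0.05, and the DESeq2 Wald test called 2.

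Since many glycolysis genes are also induced by hypoxia, 20 hypoxia-response genes outside the 35 were listed and 18 were tested. With wild type p53 at 24 h 6 rose and 3 fell, where 20.5% of all genes rose and 14.5% fell, and their median log2 fold change was 0.05. The risen genes were DDIT4 (log2 1.75), ADM (1.36), KDM4B (1.35), P4HA2 (1.12), BHLHE40 (0.88) and MXI1 (0.65), and the fallen genes P4HA1 (-0.56), ZNF395 (-0.41) and INSIG2 (-0.35). DDIT4 is also a known p53 target. Against wild type p53 at 24 h, p53 TM was higher in 1 of the 18 and lower in 4, where 9.29% of all genes were higher and 11.9% lower.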

How the data were processed

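Raw counts of reads per gene in 30 libraries of H1299 cells were analysed as deposited. The authors made these counts from single-end reads of ribosome-depleted total RNA with STAR 2.5.3a and featureCounts of Subread 1.5.2 on hg38 with GENCODE 27 (per the submitters' processing notes and the study's methods, which also name DESeq2 1.20). A table of normalized values was not used. Whether reads were counted by strand is not given in the sources used here, so reads of a gene and of an overlapping antisense gene cannot be told apart.

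Groups came from the sample titles. In 2 libraries at 6 h the title's parts named opposite groups (p53 O6-meG and p53 TM), so these were left unassigned. The other 28, in 10 groups, entered 1 fit in R 4.3.3 with edgeR 4.0.16 and limma 3.58.1: filterByExpr, which kept 21335 genes, TMM scaling, and the quasi-likelihood test with Benjamini-Hochberg adjustment over all genes kept, for 12 comparisons. A gene changed at an adjusted P below 0.05. The SE of a log2 fold change was its size over the square root of F. Levels are CPM after TMM over 30 libraries, with SD over libraries. For levels between genes, CPM was divided by the length of the Ensembl canonical transcript of GENCODE 44, which also gave the coordinates (38904 of the gene identifiers matched, 455 did not). DESeq2 1.42.0 was the alternative test. Promoter windows came from RefSeq.

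Genes with values per library were the 12 with the largest log2 change for wild type p53 at 24 h among those called, plus TIGAR, HK2, SLC2A1, SLC2A3 and GAPDH whatever their values. The 35 genes and the other lists were chosen with earlier results of these data known. Some items are not reported here.

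The fit was tested on simulated counts drawn from its own means, dispersions and library sizes, for wild type p53 against pGFP at 24 h. With 50 genes changed at each size, edgeR with no block recovered 6% at 1.2-fold, 62% at 1.5-fold and 100% at 2-fold. Changes near 1.2-fold were thus mostly missed in the simulation. There, far fewer genes changed than the 35% of all genes called in the data for this comparison. Benjamini-Hochberg adjustment is stricter when fewer genes change, so these shares cannot be carried over to the data. Total counts were 32302699 to 71950532 per library. No pair of libraries of a group matched within sampling noise (chi-square per degree of freedom 6.09 to 47.4 over 26 pairs). P-values weigh a difference against the spread between libraries of a group, estimated from all 28 libraries in the fit.

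Replicate numbers were checked for pairing by the correlation of deviations from group means. At 24 h all 30 pairs of the same number had r over 0.1 (0.182 to 0.612), so the numbers were taken to pair these libraries, from the data and not from the labels. At 6 h 5 of 9 pairs did. The main fit held no block, so its calls, adjusted P and SE at 24 h do not use the pairing. Counts with the block are given beside them. The alternatives were other size factors, the DESeq2 test, looser and stricter count filters, fits on fewer libraries, the replicate block, placing the 2 unassigned libraries by either label, and leaving out each library in turn.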

Additional observations from a re-analysis of the deposited data

Results flagged for a closer look

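In 4 genes the response to wild type p53 against pGFP differed between 24 h and 6 h by edgeR's interaction term. The 24 h response exceeded that at 6 h by log2 0.60 for PFKFB3 and 0.63 for RPIA, and lay below it by log2 -0.51 for ENO2 and -0.43 for PDK2. ENO2 and PDK2 were also the 2 genes that rose most with time in pGFP cells (log2 1.11 and 0.89), and the same pGFP libraries enter both values.

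The 2 libraries at 6 h whose labels contradict themselves entered no comparison. TIGAR read 58.2 CPM in the library whose title begins as p53 TM and 161 CPM in the one whose title begins as p53 O6-meG, both above the pGFP libraries at 6 h. The assigned libraries at 6 h read 57.4 and 59.8 CPM with p53 TM and 153 and 146 CPM with p53 O6-meG. Both p53 targets used as a check ran the same way: CDKN1A read 50.2 and 249.7 CPM and MDM2 301 and 1179 CPM in these libraries, in the same order. The assigned libraries read 57.9 and 65.9 CPM of CDKN1A with p53 TM and 261 and 269 CPM with p53 O6-meG, and 286 and 349 CPM of MDM2 with p53 TM and 972 and 1155 CPM with p53 O6-meG. In all 3 genes each library lay nearer to the group named by the first part of its title. Groups were taken from labels and not from levels, so both libraries remained outside the comparisons. Groups of at most 3 libraries were too small for a check of single outlying libraries.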

How the results depend on the processing

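Of the 2365 values of single genes under the alternatives, 2190 kept their direction and side of the threshold. The other 175 kept their direction but no longer passed, and none reversed. These values belong to 65 results of single genes, mostly ones past the threshold in the main fit. Calls gained under an alternative were therefore mostly not counted. TIGAR, RPIA, PDK3, PFKFB3, TKT, SLC2A3, ENO2 and PDK2 stayed past the threshold for wild type p53 against pGFP at 24 h in every alternative run, with highest adjusted P from 5.85e-06 (TIGAR) to 0.0461 (PDK2). ALDOA (0.000238 to 0.537), GAPDH (0.000161 to 0.479), LDHA (0.000282 to 0.316), PKM (1.55e-05 to 0.232) and PGD (0.000989 to 0.464) did not. The causes were not tested.

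The number of the 35 genes past the threshold moved as follows. Outside the block, the share of all genes under each alternative is not given here. A move of the 35 genes and a move of all genes then cannot be told apart. With the replicate block, wild type p53 against pGFP gave 6 genes at 6 h in place of 2 (18.8% of all genes) and 20 at 24 h in place of 13. The block took p53 O6-meG to 14 at 6 h (17.2% of all genes, from 1 gene) and 18 at 24 h (from 9), and p53 TM to 1 at 6 h (1.54% of all genes, from 0) and 6 at 24 h (from 1). For p53 TM against wild type p53 the block gave 5 at 6 h (21.1% of all genes, from 2) and 16 at 24 h (from 10), and for the interaction 9 in place of 4. At 6 h the numbers were not shown to pair the libraries. With the groups compared alone it was 4 for wild type p53 at 6 h, 2 for p53 O6-meG at 6 h, 1 for p53 TM at 6 h and 4 for p53 TM against wild type p53 at 24 h. With the libraries of the time alone it was 4, 2, 1 and 4 in these comparisons, and 4 for p53 TM against wild type p53 at 6 h. With every gene of at least 1 count kept, 8 changed with wild type p53 at 24 h. Placing the 2 unassigned libraries by the genotype field gave 1 for p53 TM against wild type p53 at 6 h, and by the first part of the title 3 for p53 O6-meG at 6 h. Dropping 1 library at a time moved the counts between 2 and 3 for wild type p53 at 6 h and between 9 and 14 for it at 24 h. The p53 O6-meG counts lay between 1 and 2 at 6 h (2 without pGFP replicate 1) and between 7 and 11 at 24 h. Those of p53 TM against wild type p53 were 2 throughout at 6 h and lay between 5 and 11 at 24 h. The change of pGFP over time gave 15 to 20 and the interaction 2 to 5, while RW stayed at 0, p53 TM against pGFP at 0 at 6 h and at 1 at 24 h.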
